A study of Homo sapiens with 18 samples.

Results

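The genes described here are 10 genes of cAMP signalling and its feedback, taken by symbol from a table of 26372 gene symbols, in which all 10 were found: the transcription factors CREB1 and CREM, the phosphodiesterases PDE3A, PDE3B, PDE4A, PDE4B, PDE4D and PDE10A, and the protein kinase A regulatory subunits PRKAR1A and PRKAR2B. They were measured by RNA-seq in SH-SY5Y, an established human neuroblastoma line, after infection with lentivirus derived from the FUGW plasmid. The virus carried ZNHIT3, a factor that the series title ties to snoRNP assembly, as wild type (WT), with the substitution C14R, or with a deletion. Each construct was sampled at day 0 and at day 18 of neuronal differentiation, giving 6 groups of 3 libraries and 18 libraries in all. The differentiation medium was serum-free Neurobasal with B27 and held 10 µM all-trans retinoic acid, 2 mM dibutyryl cAMP (db-cAMP, a cAMP analogue that enters cells), 20 mM KCl and 50 ng/ml BDNF. All 6 groups share the cell line, the virus backbone and an exogenous ZNHIT3 copy, and the labels name neither the promoter that drives it nor any change to the cells' own ZNHIT3. The deletion is labelled 251-254, 251-255 and 251-256 in replicates 1, 2 and 3, and the titles call these libraries depleted. All samples carry the same growth protocol, which does not say whether the day 0 cells had already received this medium, so the days cannot be read as cells without and with it. The groups include no arm without db-cAMP, so its part cannot be told apart from that of the other medium components, serum withdrawal and time. The labels do not say that replicates were separate cultures, so p-values measure only the spread between these libraries.

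Cyclic AMP is made by adenylyl cyclases under the control of G proteins and is broken down by phosphodiesterases. It binds the regulatory subunits of protein kinase A (PKA) and frees the catalytic subunits, which phosphorylate CREB1 and its relatives at cAMP response elements (CREs), whose full palindrome is TGACGTCA. The pathway restrains itself in several places: phosphodiesterases degrade the signal, regulatory subunits recapture the kinase, and CREM, which also has an internal promoter for the short repressor ICER, can occupy CREs without activating them.

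The CRE palindrome was searched in RefSeq promoter windows on GRCh38.p14, each covering 250 bases before and 50 after a start site. The 3 starts below are shown because CREM, PRKAR1A and PDE4A were the genes of the 10 with a full palindrome in a window searched. Their changes between the days ranged from large to not called. Windows were found for 9 of the 10 genes, 36 in all, and PDE3B had none. The windows of PDE3A, PDE4D and PDE10A all lay inside the gene and did not cover its outermost GENCODE start. The only PDE3A window was chr12:20571829-20572128, while the gene begins at 20369245. For these 4 genes a palindrome at the outermost start was therefore not searched for. TGACGTCA, which reads the same on both strands, lay in 5 of them, 2 of 7 for CREM, 2 of 5 for PRKAR1A and 1 of 5 for PDE4A, and 1.85% of all 35116 windows held it. The CREM pair overlap and hold the same site, as do the PRKAR1A pair, so the 5 windows hold 3 distinct palindromes, 1 in each gene. The shorter TGACG, on either strand and counted also inside the palindrome, lay in 9 of the 36 windows and in 24.6% of all windows, and added PDE4D to the genes with a match. A match is only a description of the letters. In the following stretches, from 150 bases before a start to 10 bases from it on, capitals mark TGACGTCA and TGACG on either strand.
CREM: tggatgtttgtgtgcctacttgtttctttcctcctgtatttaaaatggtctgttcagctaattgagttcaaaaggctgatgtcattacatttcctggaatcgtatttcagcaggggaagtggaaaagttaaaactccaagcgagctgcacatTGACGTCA
PRKAR1A: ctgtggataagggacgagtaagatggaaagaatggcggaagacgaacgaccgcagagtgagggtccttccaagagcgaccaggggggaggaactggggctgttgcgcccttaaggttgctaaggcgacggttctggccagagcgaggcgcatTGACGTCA
PDE4A: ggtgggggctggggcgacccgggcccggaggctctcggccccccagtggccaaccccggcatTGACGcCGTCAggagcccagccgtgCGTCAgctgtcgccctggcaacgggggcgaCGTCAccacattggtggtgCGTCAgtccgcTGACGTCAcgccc
The CREM stretch is chr10:35195700-35195859 on the plus strand. Its start at 35195850 lies 69059 bases inside the gene, downstream of the starts of 42 of 48 GENCODE transcripts, and the palindrome begins at base 3 of the transcript. The PRKAR1A stretch is chr17:68512229-68512388 on the plus strand, with the palindrome again at base 3. The PDE4A stretch is chr19:10416623-10416782 on the plus strand, where the palindrome begins 3 bases before the start and 5 further TGACG matches lie upstream. GC content was 40.6% in the CREM stretch, 58.8% in the PRKAR1A stretch and 73.8% in the PDE4A stretch.

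Values are taken as FPKM, which by definition are fragment counts divided by transcript length and by library size. Any further scaling between libraries is not given in the sources used here. Absolute depth is unknown. Relative depth, read from the steps between low values, was 58.8% to 84.4% of the deepest library at day 0 and 82.1% to 100% at day 18. The days formed the first principal component of all tested genes (86.9% of the variance), and C14R replicate 1 of day 18 stood apart on the second (2.49%). Small RNA genes took 31.5% to 80.1% of the FPKM of a library. In an alternative scaling they were left out and the remaining FPKM of each library were rescaled to the same sum. The factors were 0.918 to 0.949 at day 0 and 1.05 to 1.10 at day 18. Leaving genes out does not itself change the FPKM of others, so values moved through the rescaling, here and wherever small RNA genes are left out. The rescaling moved the median log2 change of all tested genes between the days from 0.026 to 0.21 in WT, from 0.019 to 0.18 in C14R and from 0.029 to 0.23 in deletion. The share of higher genes among those called moved with it from 52.9% to 68.7%, from 52.0% to 66.5% and from 52.8% to 69.5%. Of 10 sympathetic neuroblast markers 9 reached 1 FPKM in at least 1 library of each day, and 8 of 9 neuronal markers did so, all but RBFOX3. From day 0 to day 18 the summed level of the neuronal markers went from 872-924 to 1810-1986 FPKM, that of the 6 glial markers from 3.36-5.01 to 8.95-10.9 FPKM and that of the 7 mesenchymal markers from 404-430 to 106-128 FPKM. The 5 epithelial markers summed to 30.8-42.4 and then 2.10-4.54 FPKM, with KRT5 at 0 at day 0, and the 5 immune markers to 5.52-6.98 and then 1.14-2.36 FPKM, with CD3E at 0 at day 18. In each of these lists 1 gene made up most of the sum at day 0, at 28.0-39.5 FPKM in the epithelial and 5.36-6.85 FPKM in the immune list. Of 3 tested epithelial markers, 2 were called lower and 1 higher in C14R, so the sums do not describe every marker of a list. The part of these shifts in the results that follow was not tested, and in bulk RNA a change in the number of expressing cells and a change in RNA per cell cannot be told apart.

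Between day 0 and day 18, 8 of the 10 genes rose in each of the 3 lines. PDE10A had the largest estimate and CREM the next in each line, CREB1 had the smallest of the 8, and PDE3A, PDE4D, PDE4B, PRKAR1A and PRKAR2B lay between them in an order that differed between lines. PDE3B fell and PDE4A did not pass the test. The 3 libraries of day 18 did not overlap the 3 of day 0 for 9 of the 10 genes in each line, PDE4A being the exception, against 75.7% of tested genes in WT, 71.8% in C14R and 77.7% in deletion. With a call defined as a Benjamini-Hochberg adjusted p under 0.05 in limma, over 13785 genes with a mean FPKM of at least 1, this made 9 of 10 genes called in each line, against 72.2% of all tested genes in WT, 72.9% in C14R and 73% in deletion. The 8 rises stood against 38.2%, 37.9% and 38.6% of tested genes called higher, and the 1 fall against 34%, 35% and 34.4% called lower. The median absolute log2 change of the 10 genes was 0.62 in WT, 0.83 in C14R and 0.72 in deletion, beside 0.38, 0.38 and 0.39 over all tested genes. With small RNA genes left out, which moved the median of all genes as given above, the 8 rises kept their calls in each line.

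**Figure D1:**
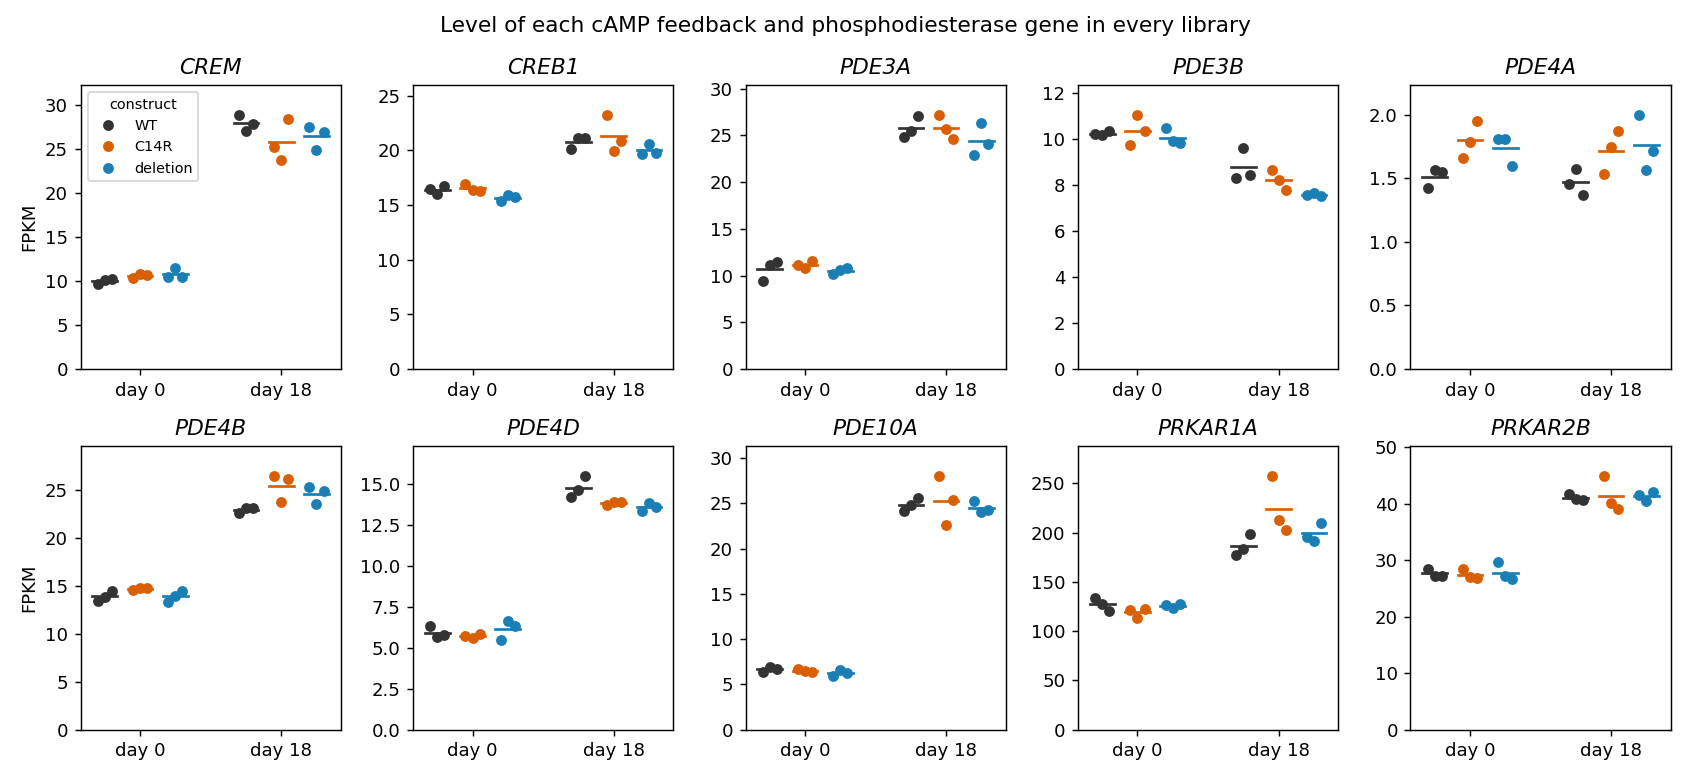
FPKM of each of the 10 genes in every library, by day and construct, with points for libraries and horizontal lines for group means, each panel on its own linear axis from 0. The day 0 and day 18 libraries do not overlap for any gene but PDE4A, and C14R replicate 1 of day 18 gives the highest PRKAR1A value, 257 FPKM.

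CREM (chr10:35126791-35212958, plus strand), which encodes CRE-binding activators and repressors, was the transcription factor of the pair with the larger change. In WT it measured 9.64, 10.1 and 10.2 FPKM at day 0 and 28.8, 27.0 and 27.8 FPKM at day 18. In C14R it went from 10.3, 10.7 and 10.7 FPKM to 25.2, 23.7 and 28.3 FPKM, and in deletion from 10.4, 11.5 and 10.5 FPKM to 27.5, 24.9 and 26.9 FPKM. All 9 libraries of day 18 were higher than all 9 of day 0, and the ratio of the day means over the 3 lines was 2.56. On the log2(FPKM + 1) scale, the scale of all log2 changes here, CREM rose by 1.39 ± 0.060 (SE, n = 3 libraries a group, limma adjusted p = 9.71e-13) in WT, by 1.21 in C14R and by 1.22 in deletion. In WT, 463 of 13785 tested genes had a larger log2 change. FPKM per gene do not separate the ICER form from the longer CREM transcripts.

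CREB1 (chr2:207529737-207603431, plus strand), the PKA-phosphorylated activator, changed less. Its level over the 9 libraries of day 0 was 15.4 to 16.9 FPKM with a median of 16.3, and over those of day 18 it was 19.7 to 23.2 FPKM with a median of 20.6. The days did not overlap, and the log2 change was 0.33 ± 0.049 (SE, n = 3 a group, limma adjusted p = 1.1e-05) in WT, 0.35 in C14R and 0.34 in deletion. In WT, 4102 tested genes had a larger log2 change than CREB1. Within a library, CREM was below CREB1 at day 0, with a ratio of 0.587 to 0.720, and above it at day 18, with a ratio of 1.08 to 1.43, so the order of the pair was exchanged in all 9 libraries of day 18.

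PDE3A and PDE3B, the phosphodiesterases that hydrolyse cAMP and are inhibited by cGMP, moved in opposite directions. PDE3A (chr12:20369245-20684381, plus strand) measured 9.42, 11.1 and 11.5 FPKM in WT at day 0 and 24.8, 25.5 and 27.0 FPKM at day 18. It rose by 1.20 ± 0.066 on the log2 scale in WT (SE, n = 3 a group, limma adjusted p = 2.8e-11) and by 1.14 in each of the other two lines. The 9 libraries of day 18, at 22.9 to 27.1 FPKM, lay above the 9 of day 0, at 9.42 to 11.6 FPKM.

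PDE3B (chr11:14643723-14872044, plus strand) was the 1 gene of the 10 called lower. It measured 10.2, 10.1 and 10.4 FPKM in WT at day 0 and 8.28, 9.59 and 8.41 FPKM at day 18. In C14R the values were 9.72, 11.0 and 10.3 FPKM and then 8.66, 8.23 and 7.78 FPKM, and in deletion 10.5, 9.89 and 9.80 FPKM and then 7.58, 7.63 and 7.50 FPKM. The days did not overlap in any line, though the highest day 18 library, WT replicate 2, lay close to the lowest of day 0. The log2 change was -0.21 ± 0.059 in WT (SE, n = 3 a group, limma adjusted p = 0.00516), -0.30 in C14R (adjusted p = 0.000228) and -0.37 in deletion (adjusted p = 2.81e-05). The call depended on the scaling: with small RNA genes left out and the libraries rescaled, the change was -0.016 in WT (adjusted p = 0.832) and -0.13 in C14R (adjusted p = 0.0762), while deletion kept -0.17 (adjusted p = 0.0262). The ratio of PDE3A to PDE3B within a library, which no library scaling moves, was 0.924 to 1.14 at day 0 and 2.66 to 3.45 at day 18, so PDE3A went from near parity to exceeding PDE3B.

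**Figure D2:**
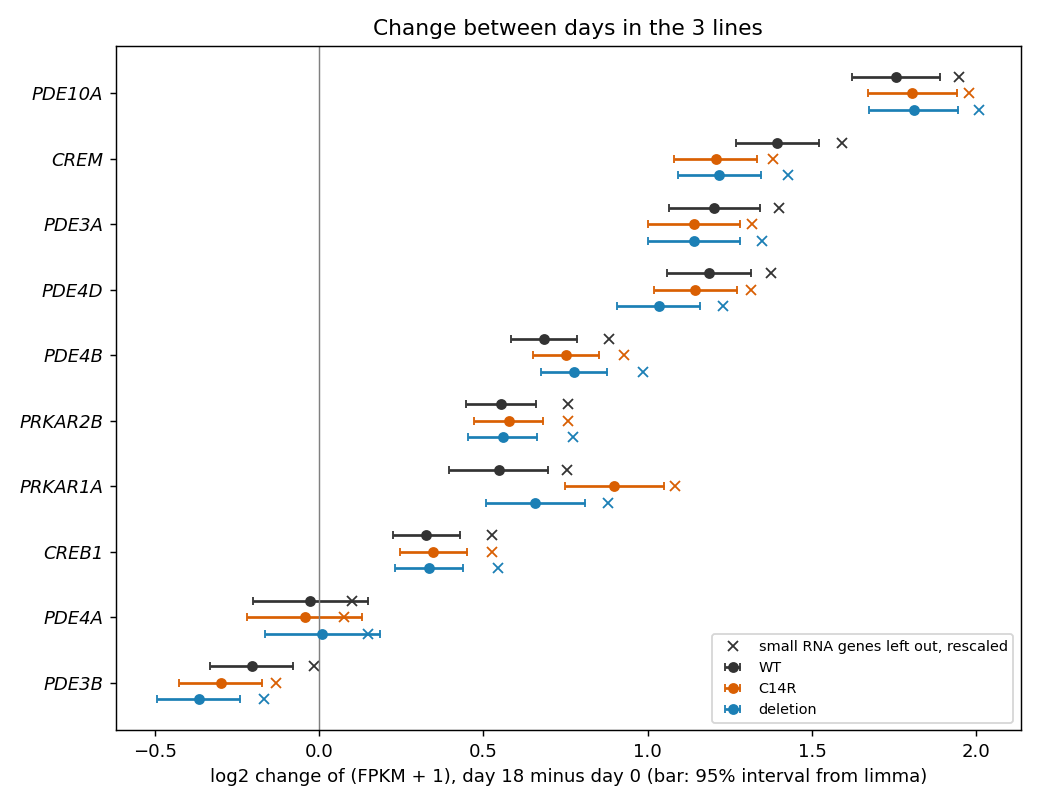
Change of log2(FPKM + 1) from day 0 to day 18 for each gene in the 3 lines, with filled points for limma estimates, bars for their 95% intervals, and crosses for the values with small RNA genes left out and libraries rescaled. PDE10A lies furthest right at 1.76 to 1.81 and PDE3B furthest left, and the crosses lie to the right of the points for all 10 genes, which takes PDE3B in WT to -0.016 and PDE4A in WT from -0.026 to 0.099.

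PDE4A, PDE4B and PDE4D belong to the family that hydrolyses cAMP alone and is the target of rolipram. PDE4D (chr5:58969038-60522120, minus strand) measured 6.36, 5.66 and 5.78 FPKM in WT at day 0 and 14.2, 14.6 and 15.5 FPKM at day 18. It rose by 1.19 ± 0.060 on the log2 scale in WT (SE, n = 3 a group, limma adjusted p = 9.35e-12), by 1.15 in C14R and by 1.03 in deletion. The day 0 libraries of the 3 lines reached at most 6.64 FPKM, and those of day 18 began at 13.4 FPKM.

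The antisense gene PART1 shares 227 exonic bases with PDE4D, 1.39% of the PDE4D exon bases, and went from 0.374-0.933 FPKM at day 0 to 16.9-20.4 FPKM at day 18. The use of strand in counting is not given in the sources used here, so reads from the shared bases cannot be told apart, and the part of PART1 in the PDE4D values was not tested.

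PDE4B (chr1:65792514-66374579, plus strand) was the most abundant of the 3 PDE4 genes on both days. In WT it measured 13.4, 13.9 and 14.5 FPKM at day 0 and 22.6, 23.1 and 23.2 FPKM at day 18, in C14R 14.6, 14.8 and 14.8 FPKM and then 26.5, 23.8 and 26.2 FPKM, and in deletion 13.4, 13.9 and 14.5 FPKM and then 25.3, 23.5 and 24.9 FPKM. The days were separated in each line. The log2 rise was 0.68 ± 0.047 in WT (SE, n = 3 a group, limma adjusted p = 6.7e-10), 0.75 in C14R and 0.78 in deletion, and 1961 tested genes had a larger log2 change in WT.

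PDE4A (chr19:10416773-10469631, plus strand), the gene with the densest TGACG matches upstream of its start, was the lowest of the 10 at both days. Its level was 1.42 to 1.95 FPKM over the day 0 libraries, with a median of 1.66, and 1.37 to 1.99 FPKM over those of day 18, with a median of 1.57. The days overlapped. The log2 change was -0.026 in WT (95% interval -0.20 to 0.15, n = 3 a group, limma adjusted p = 0.784), -0.044 in C14R and 0.0099 in deletion, and its sign changed with the scaling, with small RNA genes left out giving 0.099 in WT and 0.075 in C14R. PRKAR1A and CREM, which hold the same palindrome, were called higher. So were CREB1, PDE3A, PDE4B, PDE4D, PDE10A and PRKAR2B, whose searched windows held no palindrome. Any part of the palindrome in these changes was not tested.

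The balance within the PDE4 family was followed as the share of each gene in the summed FPKM of PDE4A, PDE4B, PDE4C and PDE4D of the same library. PDE4D held 24.8% ± 1.60 (SD, n = 9) at day 0 and 33.7% ± 1.98 at day 18, a difference of 8.92 percentage points (exact two-sided permutation test with days relabelled within lines, p = 0.00025, the smallest of 8000 relabelings, Benjamini-Hochberg adjusted p = 0.0005 over 4 shares). PDE4A held 7.03% ± 0.64 and then 3.94% ± 0.43, a difference of -3.09 points with the same exact p = 0.00025. For both genes the 9 day 18 libraries lay apart from the 9 day 0 libraries, PDE4D at 31.5% to 37.1% against 22.9% to 27.5%. With 3 libraries against 3, the test within a line cannot go below 0.1, which WT, C14R and deletion each reached for these shares.

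The PDE4B share was 59.4% ± 1.27 (SD, n = 9) at day 0 and 58.3% ± 2.02 at day 18, a difference of -1.12 points (exact permutation p = 0.117). This result moved with its denominator and with single libraries. Without PDE4C in the sum the difference was -4.37 points (exact permutation p = 0.00025), without deletion replicate 2 of day 0 it was -1.35 points (p = 0.045, exact) and without C14R replicate 1 of day 18 it was -1.42 points (p = 0.0452, exact). By line it was -3.38 points in WT, -0.65 in C14R and 0.67 in deletion, and in WT the 3 day 18 libraries, at 55.5% to 56.5%, lay below the 3 of day 0.

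**Figure D3:**
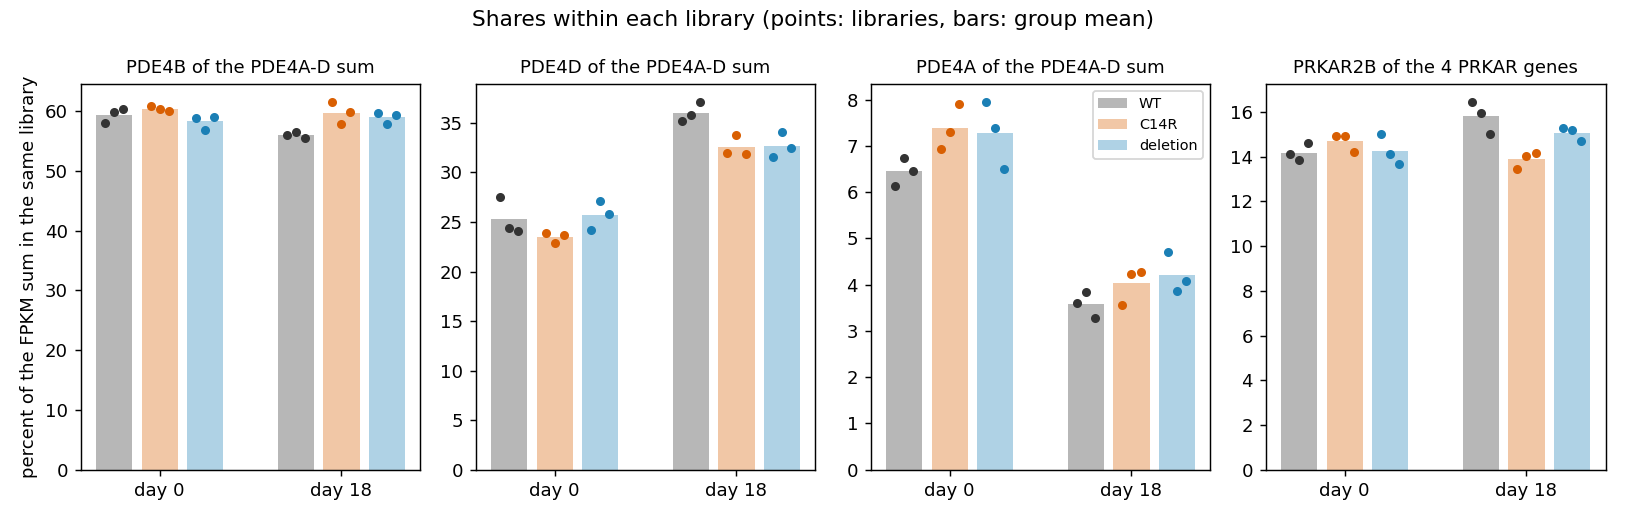
Percent of the summed FPKM of PDE4A, PDE4B, PDE4C and PDE4D held by PDE4B, PDE4D and PDE4A, and of the 4 PKA regulatory subunit genes held by PRKAR2B, in every library, with points for libraries and bars from 0 for group means. PDE4D climbs from 24.8% to 33.7% and PDE4A drops from 7.03% to 3.94%, while PDE4B goes from 59.4% to 58.3%, and PRKAR2B is higher at day 18 in WT and lower in C14R.

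PDE10A (chr6:165327287-165988078, minus strand), a phosphodiesterase for cAMP and cGMP known for its high level in striatal medium spiny neurons, had the largest rise. In WT it measured 6.34, 6.98 and 6.67 FPKM at day 0 and 24.1, 24.8 and 25.6 FPKM at day 18. In C14R it went from 6.67, 6.50 and 6.33 FPKM to 28.0, 22.6 and 25.3 FPKM, and in deletion from 5.93, 6.62 and 6.28 FPKM to 25.3, 24.0 and 24.2 FPKM. Each day 18 library exceeded each day 0 library, with a ratio of day means of 3.84. The log2 rise was 1.76 ± 0.064 in WT (SE, n = 3 a group, limma adjusted p = 1.07e-13) and 1.81 in each of the other two lines, and 261 of 13785 tested genes had a larger log2 change in WT.

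The antisense gene LINC00602 shares 528 exonic bases with PDE10A, 2.40% of the PDE10A exon bases, and measured 0.858 to 1.53 FPKM at day 0 and 7.89 to 12.8 FPKM at day 18. Its part in the PDE10A values was not tested.

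Set against the whole family, the 6 phosphodiesterases described here gained and lost ground within a larger total. The summed FPKM of 23 phosphodiesterase genes was 93.4 to 99.3 at day 0 (median 96.1) and 154 to 166 at day 18 (median 158). PDE10A made up 6.30% to 7.10% of that sum at day 0 and 14.4% to 16.8% at day 18. PDE3A went from 10.1%-11.9% to 14.8%-16.6% and PDE4D from 5.76%-6.99% to 8.27%-9.38%, each without overlap between the days. PDE4B overlapped, at 14.1% to 15.3% and then 14.02% to 16.5%. PDE3B went from 10.1%-11.4% to 4.81%-5.93%. These are descriptions of shares and were not tested.

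PRKAR1A (chr17:68511780-68551319, plus strand), the type I alpha regulatory subunit, was the most abundant of the 10 genes. In WT it measured 133, 128 and 121 FPKM at day 0 and 177, 183 and 198 FPKM at day 18. In C14R it went from 122, 113 and 122 FPKM to 257, 212 and 203 FPKM, and in deletion from 126, 123 and 127 FPKM to 196, 192 and 210 FPKM. The 9 libraries of day 18 lay above those of day 0, and the highest was C14R replicate 1, the library that stood apart on the second principal component. The log2 rise was 0.55 ± 0.071 in WT (SE, n = 3 a group, limma adjusted p = 2.22e-06), 0.90 in C14R and 0.66 in deletion, and without C14R replicate 1 of day 18 it was 0.80 in C14R.

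PRKAR2B (chr7:107044649-107161811, plus strand), the type II beta subunit, which A-kinase anchoring proteins tether in neurons, rose in the 3 lines. Its level was 26.6 to 29.7 FPKM over the day 0 libraries (median 27.2) and 39.2 to 44.9 FPKM over those of day 18 (median 40.9), with no overlap. The log2 change was 0.55 ± 0.050 in WT (SE, n = 3 a group, limma adjusted p = 2.29e-08), 0.58 in C14R and 0.56 in deletion. The ratio of PRKAR1A to PRKAR2B in a library overlapped between the days, with a range of 4.20 to 4.78 at day 0 against 4.26 to 5.73 later.

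As a share of the 4 regulatory subunit genes PRKAR1A, PRKAR1B, PRKAR2A and PRKAR2B, PRKAR2B held 14.4% ± 0.50 (SD, n = 9) at day 0 and 14.9% ± 0.95 at day 18, a difference of 0.53 points (exact two-sided permutation test, p = 0.150). With the sum taken over PRKAR1A and PRKAR2B alone the sign turned, to -1.24 points (exact permutation p = 0.0262). By line the difference was 1.62 points in WT, -0.80 in C14R and 0.77 in deletion. The summed FPKM of the 4 regulatory subunit genes, divided by that of the catalytic subunit genes, was 3.08 to 3.42 at day 0 and 3.45 to 4.52 at day 18, so the days did not overlap.

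The order of the 10 genes by FPKM differed between the days. At day 0 it ran PRKAR1A (124 FPKM over 9 libraries), PRKAR2B (27.6), CREB1 (16.2), PDE4B (14.2), PDE3A (10.8), CREM (10.4), PDE3B (10.2), PDE10A (6.48), PDE4D (5.93) and PDE4A (1.68 FPKM), and the libraries overlapped between PDE3A and CREM, CREM and PDE3B, and PDE10A and PDE4D. At day 18 it ran PRKAR1A (203 FPKM), PRKAR2B (41.3), CREM (26.7), PDE3A (25.3), PDE10A (24.9), PDE4B (24.3), CREB1 (20.7), PDE4D (14.1), PDE3B (8.19) and PDE4A (1.65 FPKM). From CREM down to CREB1 each neighbour overlapped the next. PDE10A thus joined genes that it had been below, and PDE3B dropped to the second lowest place.

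No construct comparison called any of the 10 genes. With C14R against WT the count was 0 of 10 genes both at day 0, where 0% of tested genes were called, and at day 18, where 0.0363% were. With deletion against WT it was 0 of 10 again, beside 0.029% at day 0 and 0.0725% at day 18, and so it was with C14R against deletion, beside 0.058% and 0.029%. The interaction of construct and day also called 0 of 10 genes, both for C14R (0%) and for deletion (0.0145%). These counts come from limma with Benjamini-Hochberg adjustment, and they stayed at 0 under each alternative setting and with each library left out. At an unadjusted limma p under 0.05 there were 2 genes for C14R against WT at day 18, 1 for deletion against WT at day 18, 1 for C14R against deletion at day 18, 2 for the C14R interaction, and 0 in the remaining 4. The shares of all tested genes at that level were 11.1%, 11.4%, 11.2% and 5.73% in the 4 comparisons with such a gene, so 1 of 10 is near the background, and they ranged from 2.81% to 9.84% in the remaining 4.

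PRKAR1A had the largest of these differences. At day 18 it averaged 224 ± 29.2 FPKM in C14R and 186 ± 10.9 FPKM in WT (SD, n = 3 each), and the 3 C14R libraries lay above the 3 of WT. The log2 difference was 0.26 (95% interval 0.11 to 0.41, limma adjusted p = 0.165), and 0.16 without C14R replicate 1 (adjusted p = 0.254). The PRKAR1A rise in C14R minus that in WT was 0.35 (95% interval 0.14 to 0.56, limma adjusted p = 0.651), and 0.25 without that library (adjusted p = 0.494). Against deletion at day 18 the C14R difference was 0.16 (adjusted p = 0.442) and the libraries overlapped.

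PDE4B averaged 25.5 ± 1.47 FPKM in C14R and 23.0 ± 0.29 FPKM in WT at day 18 (SD, n = 3 each), a log2 difference of 0.14 (95% interval 0.043 to 0.24, limma adjusted p = 0.257) with no overlap of libraries. PDE3B averaged 7.57 ± 0.061 FPKM in deletion and 8.76 ± 0.72 FPKM in WT at day 18 (SD, n = 3 each), a log2 difference of -0.19 (95% interval -0.31 to -0.060, limma adjusted p = 0.255), again with no overlap. For CREM the rise in C14R minus that in WT was -0.19 on the log2 scale (95% interval -0.37 to -0.0092, limma adjusted p = 0.848). None of the 3 passed the threshold.

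For the other genes the intervals bound what these libraries could show. The PDE10A interaction was 0.050 for C14R (95% interval -0.14 to 0.24) and 0.054 for deletion (-0.14 to 0.24), the PDE3A interaction -0.062 for C14R (-0.26 to 0.13) and -0.061 for deletion (-0.26 to 0.14), and the CREB1 interaction 0.021 (-0.12 to 0.17) and 0.0088 (-0.14 to 0.15). For PDE4D the deletion interaction was -0.15 (-0.33 to 0.026). The libraries of 2 constructs did not overlap at day 0 for 3 genes between C14R and WT (9.47% of tested genes), for 3 between deletion and WT (18%) and for 4 between C14R and deletion (21.3%). At day 18 they did not overlap for 3 genes between C14R and WT (11.1%), namely PDE4B, PDE4D and PRKAR1A, for 3 between deletion and WT (18.9%), namely PDE3B, PDE4B and PDE4D, and for 1, PDE3B, between C14R and deletion (12.2%). PDE4D averaged 13.9 FPKM in C14R and 13.6 FPKM in deletion at day 18, below the 14.8 FPKM of WT. Comparisons with WT at the same day share the WT libraries.

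The wider pathway was described through lists by role. Of 23 phosphodiesterases, 16 reached the tested level, and 10 of these were called higher and 3 lower in WT, 10 and 4 in C14R, and 10 and 3 in deletion. Over all tested genes, 38.2% were called higher and 34% lower in WT, 37.9% and 35% in C14R, and 38.6% and 34.4% in deletion. The median log2 change of the 16 phosphodiesterases in WT was 0.47, beside 0.026 over all tested genes. The counts of lower genes in these lists moved with the scaling. With small RNA genes left out and libraries rescaled, 10 phosphodiesterases were called higher and 1 lower in WT. The median of the 16 was then 0.62, beside 0.21 over all genes. That rescaling also raised the share of higher genes among all called genes, as given above. Outside the 6 described here, the named genes among the rises were PDE11A, a dual-substrate enzyme, at 0.371-0.741 FPKM on day 0 and 3.46-5.03 FPKM on day 18 (log2 change in WT 1.79), PDE7B, specific for cAMP (1.19), and PDE9A, specific for cGMP (0.81). PDE5A, specific for cGMP, fell from 10.2-11.4 to 4.84-6.05 FPKM (log2 change in WT -0.71). PDE7A, specific for cAMP, was also called lower (-0.31 in WT), but with small RNA genes left out it was not called in any line and its sign turned in deletion (0.023, adjusted p = 0.786).

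Upstream of the phosphodiesterases, 10 of 15 adenylyl cyclase and G protein genes were tested, and 4 were called higher and 3 lower in WT, 3 and 3 in C14R, and 5 and 3 in deletion, with a median log2 change of 0.017 in WT (7 higher and 3 lower in WT with small RNA genes left out). The main WT counts, 4 and 3 of 10, lay near the shares of all tested genes, 38.2% called higher and 34% lower. GNAS, the stimulatory G protein alpha subunit, went from 760-779 FPKM at day 0 to 1784-1944 FPKM at day 18 (log2 change in WT 1.25). The cyclase ADCY5 rose from 0.660-1.05 to 4.47-5.53 FPKM (1.68 in WT), and GNAI3, an inhibitory alpha subunit, rose by 0.30. ADCY3 (-0.62 in WT), GNAI2 (-0.42) and ADCY9 (-0.40) fell.

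Of 10 PKA subunit and inhibitor genes, PRKAR1A and PRKAR2B among them, 8 were tested, with 5 called higher and 2 lower in WT, 5 and 1 in C14R, and 6 and 1 in deletion, and a median log2 change of 0.26 in WT (6 higher and 0 lower in WT with small RNA genes left out). Over all tested genes the main WT shares were 38.2% called higher and 34% lower. The inhibitor PKIA went from 12.8-14.3 to 23.2-27.0 FPKM (0.80 in WT). The catalytic subunits PRKACB and PRKACA rose by 0.39 and 0.13 in WT, and the PRKACA call in WT was lost with median-of-ratios scaling (0.079, adjusted p = 0.151) and in a fit to the compared libraries alone (adjusted p = 0.0543). PRKAR1B, the type I beta subunit, fell by 0.29 in WT, and with small RNA genes left out it was not called in WT or deletion (adjusted p = 0.322 and 0.471).

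Of the 10 A-kinase anchoring protein genes, 4 were called higher and 3 lower in WT, 4 and 2 in C14R, and 3 and 2 in deletion, with a median log2 change of 0.050 in WT (6 higher and 0 lower in WT with small RNA genes left out). The main WT counts, 4 and 3 of 10, were again near the shares of all tested genes, 38.2% called higher and 34% lower. AKAP12 (0.58 in WT), AKAP11 (0.50), which binds the type II subunits, and AKAP13 (0.23) rose. AKAP1, a mitochondrial anchor, was called lower (-0.27 in WT) but in none of the 3 lines with small RNA genes left out, where its sign turned in deletion (0.018). RAPGEF4, which encodes the PKA-independent cAMP sensor EPAC2, fell from 34.6-38.9 to 12.2-14.8 FPKM (-1.45 in WT, -1.23 in C14R and -1.39 in deletion), and RAPGEF3 lay under the tested level at 0.0432 to 0.267 FPKM.

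CREM, CREB1 and the coactivator CRTC1 (log2 change in WT 0.38) were the 3 called higher of 8 CREB family and coactivator genes, with 1 called lower in each line and a median log2 change of -0.022 in WT (4 higher and 0 lower in WT with small RNA genes left out). Of 16 genes known as CRE targets, 10 were tested, and 7 were called higher and 2 lower in WT, 6 and 2 in C14R, and 7 and 1 in deletion, with a median of 0.51 in WT (7 higher and 1 lower in WT with small RNA genes left out). For both lists, the main shares of all tested genes in WT were 38.2% called higher and 34% called lower. Among the CRE targets, the granule protein genes SCG2, from 110-135 to 379-464 FPKM (1.89 in WT), and VGF, from 95.3-119 to 257-402 FPKM (1.85), and the nuclear receptor gene NR4A3 (1.27) were the largest rises. JUNB, an immediate early gene, fell from 11.0-13.7 to 3.58-5.73 FPKM (-1.13). No gene of these lists was called in a construct comparison or an interaction, where the background shares are those given for the 10 genes. The lists were drawn up with earlier results of these data known, so their counts describe the pathway and single out none of its parts.

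**Figure D4:**
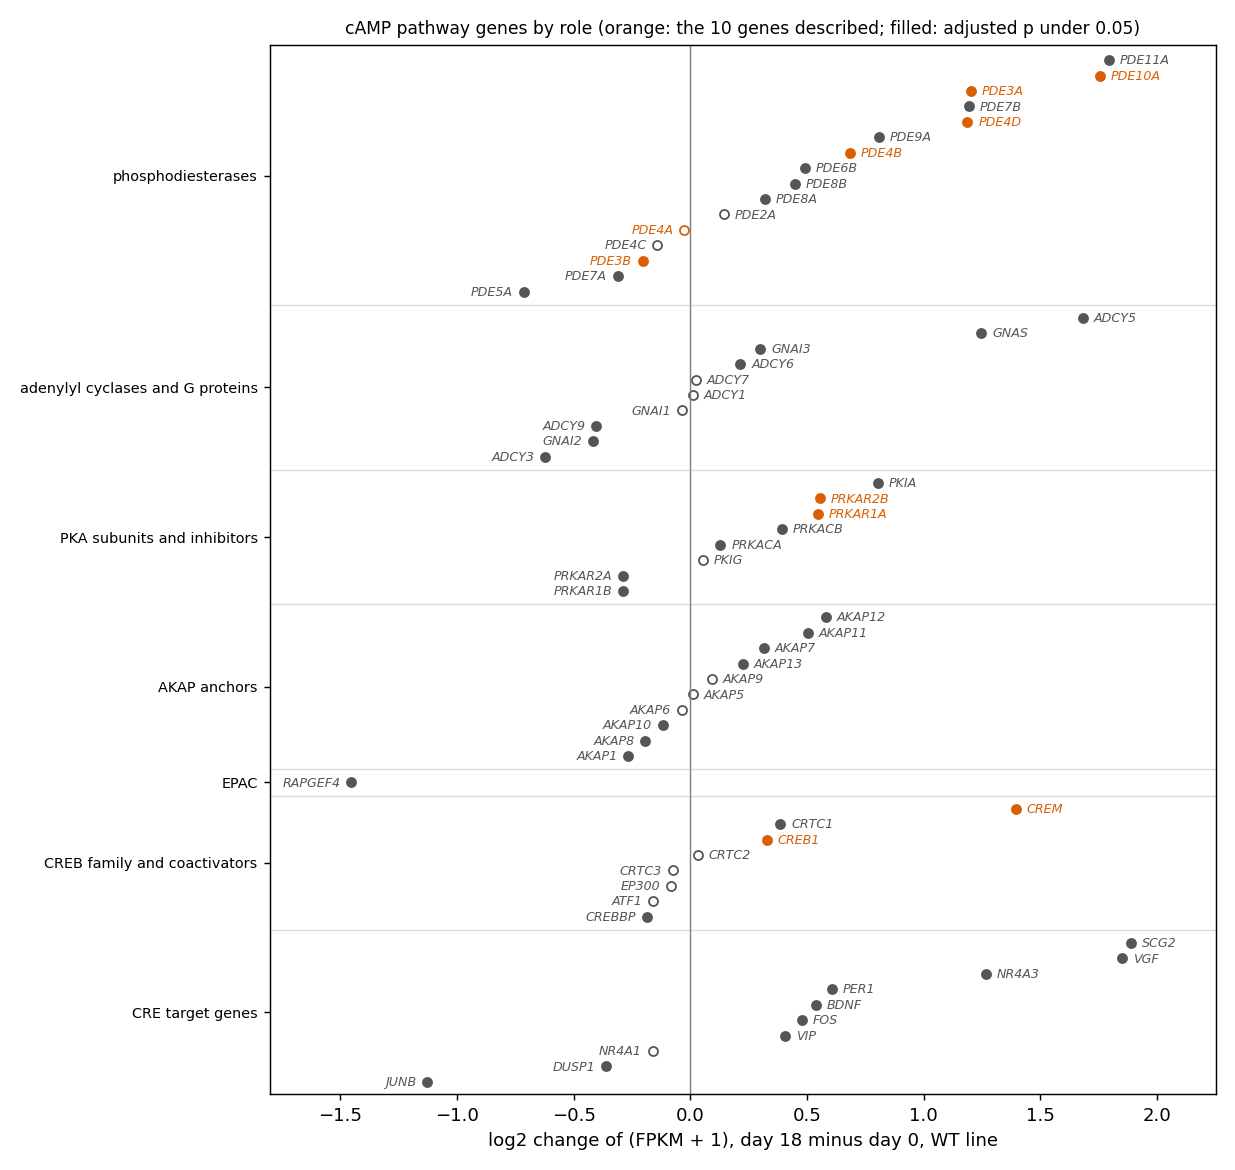
Change of log2(FPKM + 1) between day 0 and day 18 in WT for every tested gene of 7 lists by role, with filled points for an adjusted p under 0.05 in limma and orange for the 10 genes described. Rises and falls occur in each list with more than 1 tested gene, and with small RNA genes left out PDE7A, PDE3B, PRKAR1B and AKAP1 were among the genes no longer called lower.

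The genes whose log2(FPKM + 1) followed PDE10A most closely over the 18 libraries were SORL1 (Pearson r = 0.998), VPS13D, NHS, PJA2 and GNG2, and 3470 genes had r above 0.9. For PDE3B they were MAGOHB (r = 0.956), REST (0.953), ICE2 (0.947), AMMECR1 (0.944) and CTDSPL (0.942), and 305 genes had r above 0.9. The days make up most of the variation behind these values, which are descriptions with no test.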

How the data were processed

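The authors deposited 1 table of FPKM, 1 value per gene symbol and library, made from rRNA-depleted total RNA (Ribo-Zero, NEBNext Ultra, per the labels' protocols). Per the submitters' processing notes, hg38, TopHat2, STAR and Cufflinks 2.2.1 were used, with no roles given, and the use of strand and any scaling between libraries are not given in the sources used here. That these values are FPKM is read from the table's name. The columns are named by sample titles, which give construct, day and replicate, and 0 columns lacked a sample. FPKM carry no counts, so depth is known only relative to the deepest library and no counting interval is given.

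From these values log2(FPKM + 1), with a pseudocount of 1, was tested for 13785 genes with a mean of at least 1 FPKM. Of the 26372 symbols, 4960 were at 0 in all 18 libraries. One limma 3.58.1 fit (R 4.3.3) of 6 group means used an empirical Bayes trend, with Benjamini-Hochberg adjustment within each of 11 comparisons and a threshold of 0.05, and was tested on simulated data. Fold changes on this scale understate the change of low genes. Some marker genes are not reported here by name. Shares within a library were tested by exact two-sided permutation. The differences of shares between lines were tested after the values had been seen. Positions are from GENCODE 29 on GRCh38 and promoter windows from RefSeq on GRCh38.p14.

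The 10 genes were always named. Of each wider list, up to 3 rises and 3 falls were named, the largest in WT among genes called in the 3 lines with days fully separated, and for PDE10A and PDE3B the 5 most correlated genes. The 10 genes, lists and tests were chosen with earlier results of these data known. Alternative settings comprised testing without a filter or at a mean of at least 5 FPKM, adding 0.1 in place of 1, median-of-ratios scaling, quantile normalization, small RNA genes left out with rescaling, the replicate number as a block, only the libraries compared, no variance trend, array weights, and each library left out.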

Additional observations from a re-analysis of the deposited data

Results flagged for a closer look

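The change of the PRKAR2B share between the days, taken over 4 genes, differed in direction between C14R and WT. The share is the percent that PRKAR2B holds in the summed FPKM of PRKAR1A, PRKAR1B, PRKAR2A and PRKAR2B of a library. In WT it was 14.1%, 13.9% and 14.6% at day 0 and 16.4%, 16.0% and 15.0% at day 18, so the 3 later libraries lay above the 3 earlier ones. In C14R it was 14.9%, 14.9% and 14.2% at day 0 and 13.5%, 14.02% and 14.2% at day 18, so they lay below, the closest pair differing by less than the spread of either group. The change in C14R minus that in WT was -2.42 percentage points (exact two-sided permutation of line labels within each day, p = 0.01, Benjamini-Hochberg adjusted p = 0.08 over 8 such differences), and it ranged from -2.82 to -2.10 with each library left out. Without C14R replicate 1 of day 18, the library with the highest PRKAR1A value, it was -2.21 points (exact permutation p = 0.025). The rise in WT depended on the genes in the sum. Over PRKAR1A and PRKAR2B alone, a sum chosen for this comparison after the values had been seen, WT changed by 0.22 points and its libraries overlapped, at 17.6% to 18.4% and then 17.0% to 19.0%, while C14R changed by -3.05 points, from 18.0%-19.2% to 14.9%-16.2%, and the difference was -3.27 points (exact permutation p = 0.01). For deletion against WT the PRKAR2B difference was -0.85 points (exact permutation p = 0.21). The PDE4B share differed by 4.05 points between the changes in deletion and WT (exact permutation p = 0.02, adjusted p = 0.08). Neither difference passed the adjustment, and both were tested after the values had been seen.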

How the results depend on the processing

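The count of 0 genes called in the construct comparisons and interactions held under each of the alternatives and with each of the 18 libraries left out. The count of 9 called between the days held likewise in each line, except that it was 8 in WT and C14R with small RNA genes left out. With small RNA genes left out PDE3B changed by -0.016 in WT and -0.13 in C14R, neither called. PDE4A, never called, reversed its sign to 0.099 in WT and 0.075 in C14R with small RNA genes left out, to 0.013 in C14R with array weights, and to -0.025 with median-of-ratios scaling and -0.10 with quantile normalization in deletion. With each library left out it ranged from -0.058 to 0.0017 in WT, -0.085 to 0.0049 in C14R and -0.051 to 0.060 in deletion, and a mean of at least 5 FPKM leaves it untested. Over PDE4A, PDE4B and PDE4D alone the PDE4B share changed by -4.37 points, and with each library left out by -1.42 to -0.80 points, and over PRKAR1A and PRKAR2B alone the PRKAR2B share reversed to -1.24 points. The replicate number as a block left 9 of the 10 genes called in each line. Libraries with the same number did not visibly deviate together (45 pairs, median r of -0.007, range -0.363 to 0.168, 3 of 18 libraries closest to their own number). No pairing by number was seen, though such correlations cannot exclude a weak one. Over the settings the genes called in all between the days in WT ranged from 7553 to 11597. The former were of 10005 tested at a mean of at least 5 FPKM, the latter of 21412 tested without a filter. For C14R against WT at day 18 the range was 2, with only the libraries compared, to 205, with array weights, each of 13785 tested. Without C14R replicate 2 of day 18 it was 126. For deletion against WT at day 18 the range was 2 to 95. For C14R against deletion at day 0 it was 1 to 95, the 95 again with array weights. Beyond the numbers of genes tested, the cause of these differences was not tested. FPKM without counts, and 3 libraries a group, limit the precision, most for PDE4A.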
